A study of Mus musculus with 83 samples.

Results

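The comparison described here is that of the colon of 28 mo mice with the colon of 3 mo mice, the oldest and the youngest of 5 age groups in a study of aging mouse tissues. It rested on 34 of the 83 colon libraries, 18 from 28 mo mice and 16 from 3 mo mice, which were chosen by the age in their labels and by no measured value. All were male C57BL/6J/Ukj mice, an inbred substrain, with no treatment or genetic change given in the labels, and each library was made from the colon of a separate mouse. RNA was extracted with QIAzol, and strand-specific libraries of polyadenylated RNA were sequenced from both fragment ends. Libraries had been prepared in 3 batches, which held 7, 5 and 6 of the 28 mo mice and 5, 6 and 5 of the 3 mo mice. Since the mice were of 1 sex and 1 strain, the values speak for that sex and strain. The time of day at which the mice were killed is not given in the sources used here.

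The colon wall holds a single-layered epithelium, folded into crypts, over a connective tissue rich in immune cells, blood and lymph vessels, and an outer coat of smooth muscle with the enteric nervous system between its layers. Stem cells at the crypt base renew the epithelium throughout life and give rise to absorptive colonocytes, mucus-secreting goblet cells, hormone-secreting enteroendocrine cells and chemosensory tuft cells. Old mammalian gut is known for low-grade inflammation, for changes in its lymphoid tissue and for gains of DNA methylation at CpG-rich promoters of developmental genes. Because RNA was measured in the whole tissue, fewer cells of a type and less RNA per cell cannot be told apart in any value below.

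Library depth was similar in both groups. Reads assigned to genes numbered 26758538 to 46046256 per library at 3 mo and 23026370 to 75838290 at 28 mo, and the group means did not differ beyond their spread (two-sided permutation test, p = 0.9). The 10 most counted genes took 8.64% ± 0.292 (SD, n = 16) of the reads at 3 mo and 8.32% ± 0.439 (SD, n = 18) at 28 mo (permutation test, adjusted p = 0.0244), and transcripts of the mitochondrial genome took 4.01% ± 0.232 and 4.38% ± 0.408 (permutation test, adjusted p = 0.00192). Within the batches the mitochondrial share was higher at 28 mo by 0.489, 0.234 and 0.348 percentage points, and the share of the 10 most counted genes was lower by 0.222, 0.463 and 0.342 percentage points (differences of -0.222, -0.463 and -0.342). Among the 28 mo mice replicate 13, of batch 1, had the highest mitochondrial share, 5.75%. It also had the highest share of the 10 most counted genes, 9.59%, and both batch 1 differences include it. The part of these shares in the gene results was not tested.

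Several libraries stood apart. In 3 mo replicates 16, 10 and 12 the summed level of 12 smooth muscle genes was 1049, 1109 and 1551 CPM (the count of a gene scaled by the size of its library), while the other 13 3 mo mice lay between 2692 and 6253 CPM and all 28 mo mice between 3160 and 5750 CPM. These 3, called the low-muscle libraries below, held less RNA of these genes than all others, so results that rested on them are given with and without them, a choice made after the values were seen. Replicate 13 of the 28 mo group had the lowest median correlation with the other mice of its age. Replicate 14 of the 28 mo group held 77.2 CPM of 4 pancreatic enzymes, against at most 4.13 CPM in any other library of the comparison. As a check of the labelled tissue, the colonocyte gene Car1 ran from 4787 to 8818 CPM (median 6403) at 3 mo and 4221 to 11530 CPM (median 6014) at 28 mo. The goblet cell mucin Muc2 ran from 15060 to 21860 CPM (median 19870) at 3 mo and 14550 to 19450 CPM (median 16960) at 28 mo. The distal gut homeobox gene Hoxa13 ran from 16.8 to 37.5 CPM (median 24.6) at 3 mo and 15.1 to 33.2 CPM (median 25.1) at 28 mo.

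Between 28 and 3 mo, 9046 of 18325 tested genes (49.4%) were called different by edgeR's quasi-likelihood test at a Benjamini-Hochberg adjusted p under 0.1. Of the tested genes 4299 (23.5%) were higher and 4747 (25.9%) lower at 28 mo. Most of these differences were small, with a median absolute log2 fold change of 0.23 over the called genes, and 8611 of the called genes (95.2%) went the same way in all 3 batches. Those that were both called and at least 1.5-fold apart numbered 803 higher (4.38% of tested genes) and 474 lower (2.59%), and 265 and 153 were at least 2-fold apart. The groups did not overlap at all for 129 genes: every 28 mo mouse was above every 3 mo mouse for 78 genes (0.426% of tested genes) and below every one for 51 (0.278%). The median log2 fold change of all tested genes was -0.01, and medians of gene lists are read beside it. Below, a value after ± beside a log2 fold change is its standard error (SE), and a gene is said to have risen or fallen if it was called. Without 28 mo replicate 13, 9407 genes were called, and without the 3 low-muscle libraries 7925.

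**Figure D1:**
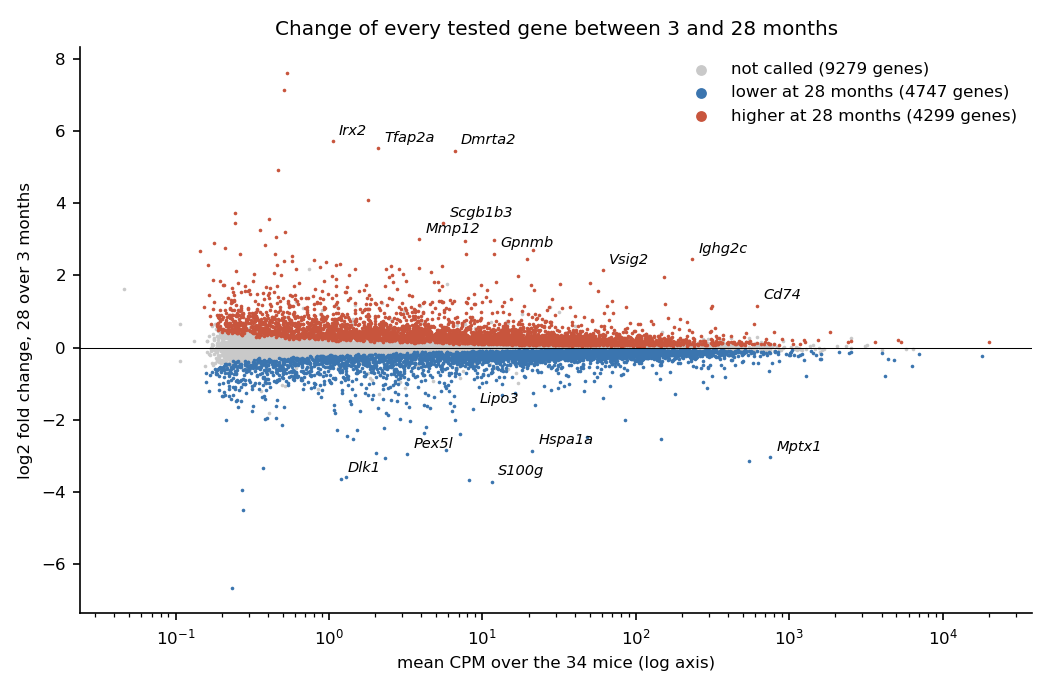
Log2 fold change of 28 against 3 mo (vertical axis) against the mean level over the 34 mice in CPM (horizontal log axis) for the 18325 tested genes, with the 4299 genes called higher, the 4747 called lower and the others in different colours. The largest rises, among them Irx2, Tfap2a and Dmrta2, were of genes with low levels, whereas several of the largest falls, such as Mptx1, were of genes with high levels at 3 mo.

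The steepest rises were of transcription factors of embryonic development. Dmrta2, a DMRT family factor of forebrain development, ran from 0.110 to 0.441 CPM (median 0.273) at 3 mo and 8.95 to 14.4 CPM (median 12.2) at 28 mo (log2 fold change 5.46 ± 0.14 (SE), adjusted p = 3.42e-49, edgeR's quasi-likelihood test). Irx2, an Iroquois homeobox factor, ran from 0 to 0.0956 CPM (median 0.0263) at 3 mo and 1.35 to 2.96 CPM (median 1.87) at 28 mo (log2 fold change 5.73 ± 0.24 (SE), adjusted p = 1.19e-34). Its transcripts were close to absent from young colon, with 20 reads in all 16 libraries of 3 mo mice together against 1359 reads in the 18 libraries of 28 mo mice. Tfap2a, the AP-2 alpha factor of neural crest and skin development, ran from 0 to 0.191 CPM (median 0.0697) at 3 mo and 2.70 to 5.04 CPM (median 3.97) at 28 mo (log2 fold change 5.52 ± 0.19 (SE), adjusted p = 4.12e-40), on 47 reads at 3 mo and 2624 at 28 mo. For all 3 factors the lowest 28 mo mouse lay far above the highest 3 mo mouse. With so few reads at 3 mo, the size of each fold depends on the prior count of the model.

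The promoters of Dmrta2 and Irx2 are shown because both genes rose from near absence and start within CpG-rich sequence. The listed window of Tfap2a, the third of these factors, holds 11 CpG and is not shown. They are taken from RefSeq on build GRCm38.p6, from 250 bases before to 50 bases after the gene's start, 5′ to 3′ on the gene's strand, with every CpG in capitals. The Dmrta2 window (chr4:109977775-109978074, plus strand) holds 26 CpG, and the Irx2 window (chr13:72628570-72628869, plus strand) holds 25.
Dmrta2: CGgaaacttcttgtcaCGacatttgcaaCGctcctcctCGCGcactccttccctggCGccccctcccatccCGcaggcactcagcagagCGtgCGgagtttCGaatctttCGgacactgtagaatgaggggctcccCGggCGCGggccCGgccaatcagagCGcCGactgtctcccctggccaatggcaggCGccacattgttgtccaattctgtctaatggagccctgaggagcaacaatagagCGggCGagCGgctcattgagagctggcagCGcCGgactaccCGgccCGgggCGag
Irx2: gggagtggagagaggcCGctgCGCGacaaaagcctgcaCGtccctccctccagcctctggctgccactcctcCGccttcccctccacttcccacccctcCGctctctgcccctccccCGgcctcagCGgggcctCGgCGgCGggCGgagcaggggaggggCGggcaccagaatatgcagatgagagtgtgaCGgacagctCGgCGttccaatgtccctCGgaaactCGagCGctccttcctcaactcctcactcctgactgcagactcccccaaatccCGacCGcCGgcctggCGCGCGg
The median promoter of a tested protein-coding gene held 20 CpG, that of a gene called higher 16 and that of a gene called lower 21. Both windows lay above these medians, whereas the median over the 9 of the 12 largest rises with a listed promoter was 11. Methylation of these promoters was not analysed here.

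Of the remaining large rises, 2 more were of developmental factors. Gata4, a zinc finger factor of heart and proximal gut, ran from 0.234 to 2.18 CPM (median 0.719) at 3 mo and 2.47 to 5.74 CPM (median 4.03) at 28 mo (log2 fold change 2.28 ± 0.22 (SE), adjusted p = 2.73e-14). Msx1, a homeobox factor of limb and face development, ran from 0.220 to 0.568 CPM (median 0.401) at 3 mo and 1.24 to 2.69 CPM (median 1.89) at 28 mo, with a log2 fold change of 2.31 ± 0.13. Neither gene's groups overlapped. Since Gata4 marks the proximal gut, the genes that mark position in the distal gut were read beside it. Hoxa13 and Hoxb13 were not called (log2 fold changes of -0.05 ± 0.09 and -0.00 ± 0.27). Hoxb13 ran from 4.30 to 38.4 CPM (median 18.4) at 3 mo and 2.25 to 31.7 CPM (median 19.3) at 28 mo, a wide range in both groups. Of the other 3 tested posterior Hox genes, Hoxd13 and Hoxd11 were called lower, with log2 fold changes of -0.82 ± 0.40 (adjusted p = 0.0868) and -0.22 ± 0.10 (adjusted p = 0.0637), and the remaining gene was not called. Both of these calls were lost in several fits that left out 1 mouse. The methods name the proximal section of the colon as the part extracted. Whether the sampled stretch of colon had a part in the rise of Gata4 was not tested.

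Genes of macrophages and of secreted proteins made up most of the other large rises. Mmp12, the macrophage elastase, ran from 0.414 to 1.29 CPM (median 0.791) at 3 mo and 2.08 to 12.2 CPM (median 5.95) at 28 mo (log2 fold change 3.01 ± 0.21 (SE), adjusted p = 2.14e-21). Gpnmb, a transmembrane glycoprotein of lysosomes known from lipid-laden macrophages, ran from 2.01 to 4.93 CPM (median 2.97) at 3 mo and 10.4 to 37.0 CPM (median 18.9) at 28 mo (log2 fold change 2.60 ± 0.16 (SE), adjusted p = 6.02e-24). In both cases all 28 mo mice were above all 3 mo mice. Scgb1b3 and Scgb2b20, subunits of the secretoglobin family from which mouse androgen-binding protein is built, rose by 3.45 ± 0.16 and 4.08 ± 0.20 on the log2 scale with no overlap between groups. The family has many near-identical copies on chromosome 7, and only uniquely mapped reads were counted, so the share of each copy is uncertain. Vsig2, an immunoglobulin domain membrane protein, had the tightest groups of this set, at 15.8 to 26.0 CPM (median 22.3) at 3 mo and 81.6 to 107 CPM (median 96.8) at 28 mo (log2 fold change 2.14 ± 0.06 (SE), adjusted p = 3.42e-49). Of the 12 largest rises only Xlr3b and Ciart had overlapping groups. Xlr3b, an X-linked gene with near-identical neighbours, was listed at 0 in mice of both ages and hardly differed in batch 3 (log2 difference of 0.08).

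The largest falls were of a more mixed set. S100g, the vitamin D-responsive calcium-binding protein calbindin-D9k, ran from 9.10 to 56.4 CPM (median 19.3) at 3 mo and 0.438 to 5.38 CPM (median 1.10) at 28 mo (log2 fold change -3.72 ± 0.39 (SE), adjusted p = 1.27e-12). Dlk1, an imprinted gene for a membrane protein of the Notch ligand family, ran from 0.701 to 3.82 CPM (median 2.38) at 3 mo and 0.0423 to 0.406 CPM (median 0.169) at 28 mo (log2 fold change -3.63 ± 0.25 (SE), adjusted p = 3.22e-21). Pex5l, which is best known as an auxiliary subunit of neuronal HCN channels, ran from 3.35 to 7.80 CPM (median 6.23) at 3 mo and 0.457 to 1.12 CPM (median 0.785) at 28 mo (log2 fold change -2.95 ± 0.13 (SE), adjusted p = 8.86e-34). These 3 were the only ones of the 12 largest falls whose groups did not overlap. By contrast, the genes other than Pex5l with the smallest p among the falls changed by less, yet every old mouse was below every young one. Lipo3, a lipase family member, ran from 10.9 to 17.2 CPM (median 13.6) at 3 mo and 2.91 to 6.11 CPM (median 4.03) at 28 mo. Kremen2, a Dickkopf receptor that dampens Wnt signalling, ran from 8.01 to 15.9 CPM (median 13) at 3 mo and 1.57 to 3.04 CPM (median 2.37) at 28 mo. Cstf2t, a paralogue of an mRNA cleavage factor, ran from 42.2 to 60.1 CPM (median 48.6) at 3 mo and 20.4 to 28.4 CPM (median 25.1) at 28 mo. Zfp37 (log2 fold change -1.54 ± 0.07) and Epb41l4a (-1.53 ± 0.08) fell with no overlap as well.

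Mptx1, a mucosal pentraxin that was among the abundant transcripts of young colon, ran from 397 to 4796 CPM (median 932) at 3 mo and 1.79 to 871 CPM (median 96.2) at 28 mo (log2 fold change -3.04 ± 0.51 (SE), adjusted p = 1.17e-06). In 9 of the 16 3 mo mice it was above every 28 mo mouse, and in 16 of the 18 28 mo mice it was below every 3 mo mouse, so the overlap came from few animals. Its paralogue Mptx2 was at the edge of detection and ran from 0 to 4.78 CPM (median 0.226) at 3 mo and 0 to 0.224 CPM (median 0) at 28 mo. Its log2 fold change of -3.95 shrank to -3.05 without 3 mo replicate 4. The median of Mptx1 was highest at 15 mo, at 2048 CPM.

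The antimicrobial lectins Reg3b and Reg3g also fell, but 1 young mouse carried much of their sum. Reg3b ran from 133 to 9697 CPM (median 322) at 3 mo and 25.4 to 290.1 CPM (median 105) at 28 mo (log2 fold change -3.15 ± 0.51 (SE), adjusted p = 4.44e-07). A single library, 3 mo replicate 14, gave 59.0% of the summed CPM of the 3 mo mice. Without that mouse the log2 fold change was -1.97 for Reg3b and -1.57 for Reg3g, and both genes were still called. For Reg3b, 13 of the 18 28 mo mice lay below every 3 mo mouse.

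**Figure D2:**
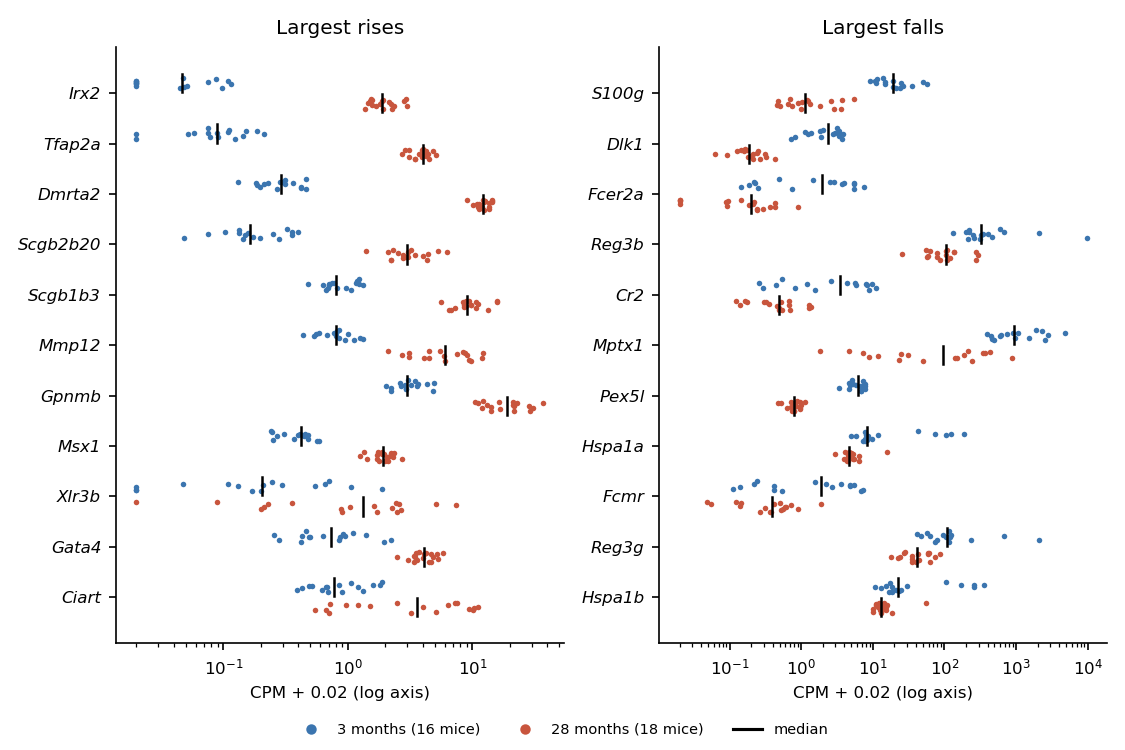
Level in each mouse (CPM with 0.02 added, log axis) of 11 of the 12 protein-coding genes with the largest rises and 11 of the 12 with the largest falls, with 3 and 28 mo mice side by side and a bar at each group's median. The points of the 2 ages are apart for 9 of the 11 rises and for 3 of the 11 falls, S100g, Dlk1 and Pex5l, while Reg3b shows 1 young mouse at 9697 CPM.

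Lists of cell type markers and pathway genes were then read across the comparison. Each is given by the number of its tested members that were called, beside the 23.5% higher and 25.9% lower of all tested genes. These counts describe the lists and were not tested as sets, and some genes stand in more than 1 list.

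**Figure D3:**
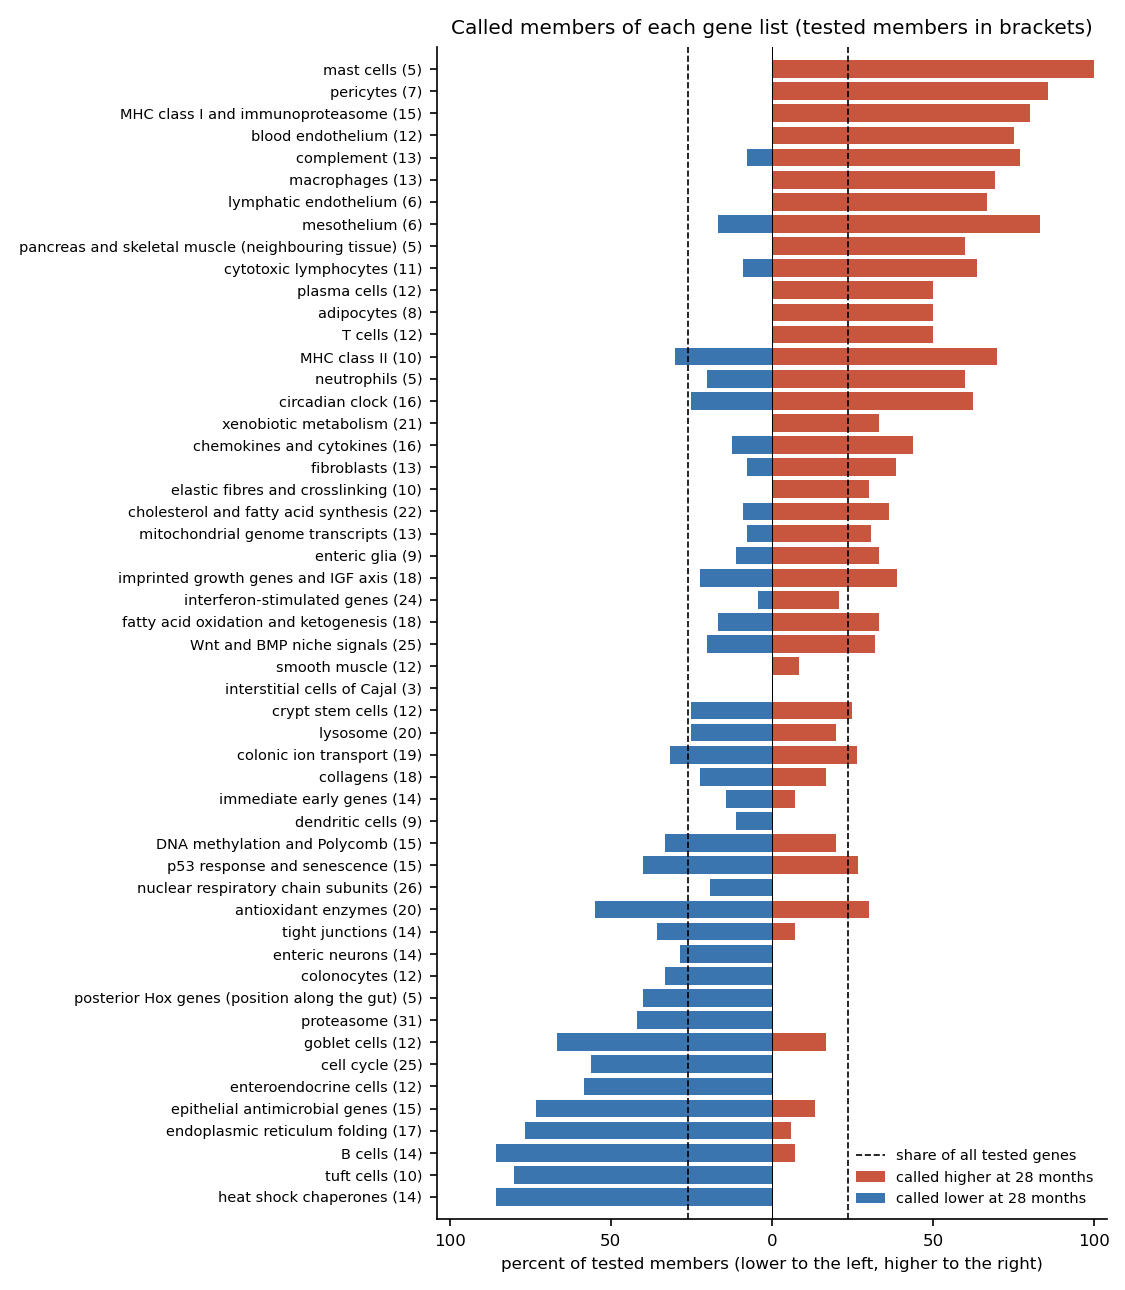
Percent of the tested members of each list called higher or lower at 28 mo, for lists with at least 3 tested members, with dashed lines at the 23.5% and 25.9% of all tested genes. Mast cells, pericytes, blood endothelium, complement, and MHC class I and immunoproteasome genes lie far to the higher side, whereas heat shock chaperones, B cells, tuft cells and endoplasmic reticulum folding genes lie far to the lower side.

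In the epithelium, most goblet, enteroendocrine and tuft cell genes were lower at 28 mo, and fewer colonocyte genes were. The lineages were not tested against each other. Of 12 colonocyte genes 4 fell and none rose (median log2 fold change -0.05), and the defining members Car1, Slc26a3 and Aqp8 were not called. Car4, a brush border carbonic anhydrase, fell by a little (-0.33 ± 0.07). Saa1, an acute phase protein made by the epithelium, ran from 152 to 656 CPM (median 216) at 3 mo and 28.0 to 186 CPM (median 115) at 28 mo (log2 fold change -1.29 ± 0.18 (SE), adjusted p = 1.45e-08). Of 12 goblet cell genes 8 fell and 2 rose (median -0.25). The summed level of the goblet cell genes was 30260 to 40720 CPM (median 35760) at 3 mo and 25230 to 35980 CPM (median 28630) at 28 mo, so that the groups overlapped but the medians were apart. Muc2, the gel-forming mucin, had a log2 fold change of -0.23 ± 0.06, Clca1, a secreted protease of the mucus, -0.80 ± 0.18, and Agr2, a disulfide isomerase needed for mucin folding, -0.33 ± 0.06. The 2 that rose were Zg16 and Spink4. The call of Zg16 was lost without 28 mo replicate 17 and that of Spink4 without 3 mo replicates 10, 12 and 16. Without those 3 low-muscle libraries 6 goblet cell genes were lower.

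Hormone genes of the enteroendocrine cells differed more sharply. Gcg, from which the glucagon-like peptides are made, ran from 49.7 to 81.4 CPM (median 59.5) at 3 mo and 23.9 to 47.3 CPM (median 30.8) at 28 mo (log2 fold change -0.93 ± 0.07 (SE), adjusted p = 6.48e-19), and no old mouse reached the lowest young mouse. Nts, which encodes neurotensin, ran from 12.7 to 36.0 CPM (median 24.2) at 3 mo and 5.98 to 15.5 CPM (median 9.42) at 28 mo (log2 fold change -1.27 ± 0.13 (SE), adjusted p = 1.37e-13). Insl5, an insulin-like hormone of colonic L cells, had a log2 fold change of -0.98 ± 0.16. Of 12 enteroendocrine genes 7 fell and none rose (median -0.27). Pyy, another L cell hormone, fell less (-0.21 ± 0.08), and Chga, a granule protein common to most enteroendocrine cells, was not called (log2 fold change -0.14 ± 0.08, adjusted p = 0.142).

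Tuft cell genes fell together. Of 10 tested members 8 were lower and none higher, with a median of -0.35. Their summed level was 83.0 to 106.2 CPM (median 91.9) at 3 mo and 45.6 to 88.3 CPM (median 74.0) at 28 mo. Trpm5, the cation channel of taste transduction, ran from 12.8 to 17.0 CPM (median 13.9) at 3 mo and 5.58 to 13.2 CPM (median 9.16) at 28 mo (log2 fold change -0.68 ± 0.07 (SE), adjusted p = 3.25e-12). Pou2f3, the factor that specifies tuft cells, had a log2 fold change of -0.60 ± 0.09 and Dclk1, their common marker kinase, -0.34 ± 0.06. With 1 library or the 3 low-muscle libraries left out, 7 or 8 members were lower.

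Crypt stem cell genes had no common direction, with 3 of 12 higher and 3 lower (median -0.04). Lgr5, the receptor that marks crypt base stem cells, ran from 7.04 to 10.7 CPM (median 9.03) at 3 mo and 5.12 to 10.2 CPM (median 7.26) at 28 mo (log2 fold change -0.26 ± 0.10 (SE), adjusted p = 0.0232). Tnfrsf19, a Wnt target of the same cells, fell by more (-0.45 ± 0.07). Rnf43 and Znrf3, the ligases that clear Wnt receptors from the surface, rose by 0.20 ± 0.05 and 0.14 ± 0.05, and Ascl2 and Smoc2 were not called. Of 25 cell cycle genes 14 fell and none rose, all by small amounts (median -0.15). Bub1, a spindle checkpoint kinase, had a log2 fold change of -0.38 ± 0.07, Top2a, a topoisomerase of dividing cells, -0.30 ± 0.07, and Tyms, the thymidylate synthase, -0.25 ± 0.06. The summed level of the cell cycle genes ran from 788 to 1764 CPM at 3 mo and from 946 to 1366 CPM at 28 mo, so the young mice covered the whole range of the old ones, and only 7 genes were lower without 3 mo replicate 14.

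Of 25 genes of the Wnt and BMP signals that stem cells receive 8 rose and 5 fell (median 0.06), shares of 32.0% and 20.0% near those of all tested genes. Rspo1 and Rspo3, ligands that amplify Wnt signals, both rose, with log2 fold changes of 1.34 ± 0.21 and 0.54 ± 0.11. Rspo1 ran from 0.292 to 1.08 CPM (median 0.488) at 3 mo and 0.550 to 2.40 CPM (median 1.30) at 28 mo. Rspo3 ran from 1.5 to 4.64 CPM (median 2.58) at 3 mo and 2.79 to 5.67 CPM (median 4.25) at 28 mo. The BMP antagonists Grem1 and Chrdl1 rose by 0.46 ± 0.11 and 0.48 ± 0.09. The ligands Bmp2 and Bmp3 fell, with log2 fold changes of -0.21 ± 0.06 and -0.35 ± 0.09, and so did Id1 (-0.25 ± 0.07), a target of BMP signals. Wnt2b was not called.

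Of 15 antimicrobial genes of the epithelium 11 fell and 2 rose, with a median of -0.79, the list to which Reg3b, Reg3g, Mptx1, Mptx2 and Saa1 belong. Ang4, an antibacterial ribonuclease, ran from 133 to 1205 CPM (median 340.5) at 3 mo and 4.29 to 666 CPM (median 112) at 28 mo (log2 fold change -1.11 ± 0.38 (SE), adjusted p = 0.0138). The exceptions were Lcn2, a siderophore-binding protein, which ran from 0.883 to 2.04 CPM (median 1.22) at 3 mo and 1.46 to 3.61 CPM (median 2.22) at 28 mo (log2 fold change 0.80 ± 0.11 (SE), adjusted p = 3.94e-09), and Nos2, the inducible nitric oxide synthase, with a log2 fold change of 0.71 ± 0.28, or 0.61 and not called without the 3 low-muscle libraries. In batch 3 the median of the list was -0.38, against -0.93 and -0.96 in batches 1 and 2.

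Genes of ion transport had no common direction, with 5 of 19 higher and 6 lower. Atp12a, the colonic proton pump, ran from 1.21 to 36.5 CPM (median 5.64) at 3 mo and 0.627 to 7.17 CPM (median 2.19) at 28 mo (log2 fold change -2.00 ± 0.37 (SE), adjusted p = 8.97e-06), with wide overlap. Slc9a3 and Slc9a2, apical sodium-proton exchangers, rose by 0.36 ± 0.12 and 0.13 ± 0.04, and Kcnn4, a potassium channel, rose by 0.25 ± 0.04. Scnn1b, a subunit of the epithelial sodium channel, and Atp1b1, a subunit of the sodium pump, fell (-0.33 ± 0.08 and -0.23 ± 0.05). Without the 3 low-muscle libraries 3 genes of this list were lower, and without 28 mo replicate 15 3 were higher. Of 14 tight junction genes 5 were lower and 1 higher, with Marveld2, the tricellulin gene, at -0.15 ± 0.03. Yet 3 were lower without 3 mo replicate 10 and 1 without all 3 of those libraries.

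Heat shock genes fell with few exceptions. Of 14 heat shock genes 12 were lower and none higher (median -0.51), and 12 were lower in each fit that left out 1 mouse. Hspa1a, the inducible HSP70, ran from 4.99 to 186 CPM (median 8.32) at 3 mo and 2.96 to 16.0 CPM (median 4.68) at 28 mo (log2 fold change -2.86 ± 0.37 (SE), adjusted p = 1.08e-09). Its copy Hspa1b ran from 10.9 to 356 CPM (median 22.1) at 3 mo and 9.96 to 56.1 CPM (median 13.1) at 28 mo (log2 fold change -2.49 ± 0.38 (SE), adjusted p = 1.51e-07). Hsph1, an exchange factor for HSP70, ran from 38.9 to 444 CPM (median 83.5) at 3 mo and 25.1 to 110.1 CPM (median 30.2) at 28 mo (log2 fold change -2.01 ± 0.25 (SE), adjusted p = 3.30e-10). Their spread was far wider at 3 mo: 5 young mice were above every old mouse for Hspa1a, and 11 of the 18 old mice were below every young one. Hsp90aa1, the inducible HSP90, had a log2 fold change of -0.96 ± 0.14, and Hsf1, the factor that switches these genes on, fell by less but with a small error (-0.26 ± 0.04).

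Of the 3 low-muscle libraries 2 were the highest for this list. Its summed level was 8907, 7447 and 3988 CPM in 3 mo replicates 16, 10 and 12, and 6408, 5387, 5214 and 4647 CPM in 3 mo replicates 13, 5, 15 and 14, against a 3 mo median of 3692 CPM and a range of 2592 to 3934 CPM at 28 mo. Without the 3 low-muscle libraries 12 genes were still lower, with a median of -0.39. The log2 fold change was then -2.55 for Hspa1a, -1.60 for Hsph1 and -0.68 for Hsp90aa1. The part of muscle content in these values was not tested.

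Hspa1a and Hspa1b are neighbours on chromosome 17 with near-identical sequence, so the split of reads between them is uncertain. Their promoters are shown because they are the classical targets of heat shock factor (RefSeq, GRCm38.p6, 250 bases before to 50 after the start, minus strand, Hspa1a at chr17:34972107-34972406 and Hspa1b at chr17:34959189-34959488). Capitals mark the heat shock element searched for, GAANNTTC, on either strand.
Hspa1a: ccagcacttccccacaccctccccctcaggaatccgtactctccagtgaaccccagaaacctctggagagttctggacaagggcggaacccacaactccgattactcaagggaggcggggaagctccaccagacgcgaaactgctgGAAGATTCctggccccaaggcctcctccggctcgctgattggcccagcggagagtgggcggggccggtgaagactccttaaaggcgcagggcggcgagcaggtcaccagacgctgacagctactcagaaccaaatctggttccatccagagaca
Hspa1b: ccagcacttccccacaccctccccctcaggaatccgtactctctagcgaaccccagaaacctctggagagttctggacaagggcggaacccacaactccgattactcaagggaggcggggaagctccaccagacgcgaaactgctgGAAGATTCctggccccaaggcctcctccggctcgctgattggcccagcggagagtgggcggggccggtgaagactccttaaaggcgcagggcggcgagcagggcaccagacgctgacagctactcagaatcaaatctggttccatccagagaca
The element was present in 6 of the 9 chaperone genes with a listed promoter (66.7%), Hspa1a, Hspa1b, Hspb1, Hsph1, Hspe1 and Bag3, and in 737 of 12709 promoters of tested genes (5.8%). Of these 6, Hspb1 was not called.

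Folding enzymes of the endoplasmic reticulum also fell, in 13 of 17 cases with 1 gene higher (median -0.38). Without the 3 low-muscle libraries 12 of them were lower and 1 higher (median -0.33). Hspa5, the BiP chaperone, ran from 552 to 1512 CPM (median 908) at 3 mo and 435 to 744 CPM (median 583) at 28 mo (log2 fold change -0.64 ± 0.10 (SE), adjusted p = 1.58e-07). Pdia6, a disulfide isomerase, ran from 204 to 371 CPM (median 283) at 3 mo and 161 to 238 CPM (median 199) at 28 mo (log2 fold change -0.51 ± 0.06 (SE), adjusted p = 5.79e-11). Canx and Hsp90b1 had log2 fold changes of -0.35 ± 0.05 and -0.43 ± 0.07. For Hspa5 and Pdia6 the ages overlapped, and the lowest old mice lay below every young mouse. Proteasome subunits fell by less, 13 of 31 with none higher and a median of -0.07. Psmd11 and Psmb5 had log2 fold changes of -0.16 ± 0.03 and -0.19 ± 0.05, and only 5 subunits were lower without the 3 low-muscle libraries.

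Clock genes moved in both directions. The clock factors BMAL1 (Arntl) and CLOCK drive the period and cryptochrome repressors, the nuclear receptor Nr1d1 and the PAR bZIP factors from E-boxes, and Nr1d1 represses Arntl in turn. Of 16 tested clock genes 10 rose and 4 fell (median 0.69). Tef, a PAR bZIP factor, ran from 12 to 37.0 CPM (median 20.1) at 3 mo and 17.5 to 168 CPM (median 70.7) at 28 mo (log2 fold change 1.80 ± 0.21 (SE), adjusted p = 2.03e-11). Per3, a period gene, ran from 7.76 to 14.8 CPM (median 9.97) at 3 mo and 9.94 to 72.2 CPM (median 27.0) at 28 mo (log2 fold change 1.59 ± 0.18 (SE), adjusted p = 1.05e-11). Ciart, a repressor of the CLOCK complex, ran from 0.369 to 1.87 CPM (median 0.753) at 3 mo and 0.529 to 11 CPM (median 3.59) at 28 mo (log2 fold change 2.19 ± 0.30 (SE), adjusted p = 7.76e-09). The old mice ranged from young levels to far above them.

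Genes of the opposite phase moved the other way. Arntl ran from 41.2 to 60.5 CPM (median 49.7) at 3 mo and 10.1 to 55.3 CPM (median 36.2) at 28 mo (log2 fold change -0.56 ± 0.12 (SE), adjusted p = 1.57e-04). Nfil3, which competes with the PAR bZIP factors, ran from 14 to 18.7 CPM (median 16.8) at 3 mo and 3.47 to 18.4 CPM (median 7.53) at 28 mo (log2 fold change -0.81 ± 0.14 (SE), adjusted p = 2.94e-06). Npas2, a CLOCK paralogue, had a log2 fold change of -0.30 ± 0.08. Per2 was not called (-0.11 ± 0.24). In 11 of the 18 28 mo mice Arntl was below every 3 mo mouse. Dbp, a PAR bZIP factor chosen for display after its values were seen, ran from 3.61 to 15.7 CPM (median 5.11) at 3 mo and 2.58 to 76.4 CPM (median 22.1) at 28 mo. In 10 of the 18 old mice it was above every young mouse, and all 10 were among the 11 with low Arntl. The 10 mice were 5 of 7 in batch 1, 2 of 5 in batch 2 and 3 of 6 in batch 3, and 7 old mice had neither low Arntl nor high Dbp by this measure. The summed level of the clock list was 584 to 947 CPM in 28 mo replicates 7, 9 and 11 to 18. In 28 mo replicates 1 to 6, 8 and 10 it was 414 to 572 CPM. Clock transcripts swing over the day, and the part of the hour of killing in these values was not tested.

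**Figure D4:**
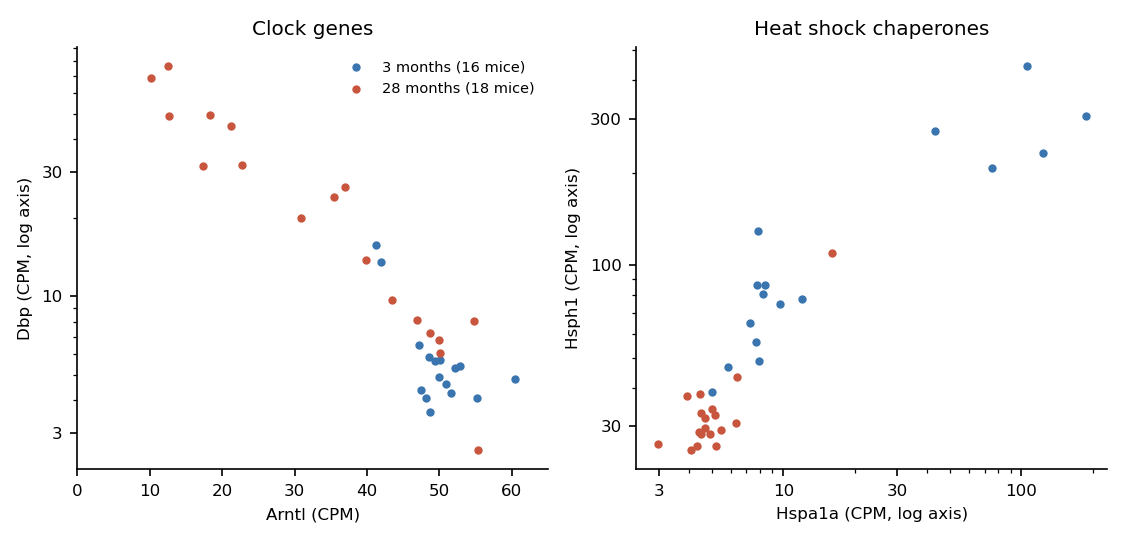
Level of Dbp against Arntl and of Hsph1 against Hspa1a in each of the 34 mice (CPM, log axes except for Arntl), with 3 and 28 mo mice in different colours. In the first panel 10 of the 18 old mice have less Arntl and more Dbp than every young mouse and 7 have neither, and in the second the young mice reach 186 CPM of Hspa1a and 444 CPM of Hsph1 while the old mice end at 16.0 and 110.

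The Ciart and Tef promoters are shown since these were the clock genes with the largest rises that hold an E-box (CACGTG, in capitals, read the same on both strands) in the listed window (RefSeq, GRCm38.p6, Ciart at chr3:95882179-95882478 on the minus strand, Tef at chr15:81802423-81802722 on the plus strand).
Ciart: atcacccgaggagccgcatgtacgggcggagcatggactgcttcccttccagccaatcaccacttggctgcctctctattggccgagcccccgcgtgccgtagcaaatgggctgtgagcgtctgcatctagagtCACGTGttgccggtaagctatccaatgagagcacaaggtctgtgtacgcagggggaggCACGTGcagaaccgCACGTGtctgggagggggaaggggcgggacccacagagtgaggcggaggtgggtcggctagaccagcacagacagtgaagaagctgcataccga
Tef: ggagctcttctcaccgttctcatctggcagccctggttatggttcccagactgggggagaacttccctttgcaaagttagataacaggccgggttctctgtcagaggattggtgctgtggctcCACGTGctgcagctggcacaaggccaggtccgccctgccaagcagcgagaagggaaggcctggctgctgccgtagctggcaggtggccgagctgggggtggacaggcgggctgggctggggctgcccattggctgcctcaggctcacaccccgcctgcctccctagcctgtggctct
The Ciart window holds 3 E-boxes and the Tef window 1. An E-box was found in 5 of 15 clock gene promoters (33.3%), Per1, Cry1, Tef, Ciart and Bhlhe41, and in 1207 of 12709 promoters (9.5%). The windows of Per3 and Dbp held none.

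Genes of antigen presentation through MHC class II rose, with wide spread among the old mice. The class II chains H2-Aa and H2-Ab1 bind peptides, Cd74 is the invariant chain that guards them, the H2-DM proteins load the peptide, and Ciita is the master activator of these genes. Cd74 ran from 248 to 524 CPM (median 364) at 3 mo and 331 to 2313 CPM (median 764) at 28 mo (log2 fold change 1.16 ± 0.16 (SE), adjusted p = 1.94e-08). H2-Aa ran from 143 to 266 CPM (median 194) at 3 mo and 147 to 1354 CPM (median 366) at 28 mo (log2 fold change 1.09 ± 0.16 (SE), adjusted p = 7.98e-08). For Cd74 13 and for H2-Aa 12 of the 18 old mice were above every young mouse. H2-DMb1 ran from 10.7 to 20.3 CPM (median 15.8) at 3 mo and 19.3 to 121 CPM (median 33.8) at 28 mo (log2 fold change 1.36 ± 0.17 (SE), adjusted p = 3.62e-10), and Ciita had a log2 fold change of 0.94 ± 0.17. The summed level of the list was 656 to 1295 CPM (median 928) at 3 mo and 745 to 5318 CPM (median 1753) at 28 mo. The highest old mouse, replicate 1, was well above the next at 2825 CPM.

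The remaining 3 of the 10 class II genes fell. H2-Ob and H2-Oa, the chains of the DO protein that B cells use to restrain H2-DM, had log2 fold changes of -1.21 ± 0.24 and -0.69 ± 0.22, and H2-DMb2 of -0.77 ± 0.21. H2-Oa and H2-DMb2 were no longer called once the mean log2 CPM of the B cell genes was added to the model.

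The promoters of H2-Aa and of H2-Eb1, a beta chain gene chosen for display after its values were seen (log2 fold change 0.78 ± 0.13), are shown as examples of the class II enhanceosome. Capitals mark the Y box (CTGATTGG, either strand), the site of the NF-Y factor (RefSeq, GRCm38.p6, H2-Aa at chr17:34287774-34288073 on the minus strand, H2-Eb1 at chr17:34305617-34305916 on the plus strand).
H2-Aa: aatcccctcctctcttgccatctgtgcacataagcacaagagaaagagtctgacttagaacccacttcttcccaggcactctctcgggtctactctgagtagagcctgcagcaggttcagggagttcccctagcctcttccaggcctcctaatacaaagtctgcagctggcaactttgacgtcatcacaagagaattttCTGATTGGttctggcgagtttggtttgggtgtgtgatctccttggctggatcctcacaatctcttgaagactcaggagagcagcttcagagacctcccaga
H2-Eb1: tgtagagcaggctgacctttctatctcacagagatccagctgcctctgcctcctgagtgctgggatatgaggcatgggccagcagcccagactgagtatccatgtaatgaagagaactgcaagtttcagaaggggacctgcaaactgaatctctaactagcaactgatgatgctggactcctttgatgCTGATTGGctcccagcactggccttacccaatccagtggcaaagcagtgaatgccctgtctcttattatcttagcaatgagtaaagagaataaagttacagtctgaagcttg
This element was present in 3 of 7 listed class II promoters (42.9%), H2-Aa, H2-Eb1 and H2-Oa, and in 717 of 12709 promoters (5.64%). It was shared by genes that rose and by H2-Oa, which fell.

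Genes of MHC class I and of the immunoproteasome and peptide transport that supply it rose more evenly. Of 15 members 12 were higher and none lower (median 0.26). The classical H2-K1 and H2-D1 and their light chain B2m rose by small amounts (0.21 ± 0.06, 0.16 ± 0.05 and 0.20 ± 0.07). The Qa region genes rose by more, though these copies are near-identical. H2-Q4 ran from 74.7 to 130.3 CPM (median 97.0) at 3 mo and 111 to 243 CPM (median 149) at 28 mo (log2 fold change 0.66 ± 0.08 (SE), adjusted p = 1.16e-10), and H2-Q6 and H2-Q7 rose by 0.96 ± 0.12 and 0.86 ± 0.13. Interferon-stimulated genes did not follow as a list: 5 of 24 were higher and 1 lower (median 0.12), so that the 20.8% higher was near the 23.5% of all tested genes and the 4.17% lower was under the 25.9%. Among them Gbp2, a guanylate-binding protein induced by interferon gamma, rose (0.64 ± 0.17), Mx1, an antiviral GTPase of type I interferon, fell (-0.42 ± 0.13), and Isg15 and Irf7 were not called.

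Complement genes rose in 10 of 13 cases, with 1 lower and a median of 0.50. C3, the central component, ran from 31.4 to 68.3 CPM (median 57.2) at 3 mo and 53.6 to 209 CPM (median 118) at 28 mo (log2 fold change 1.13 ± 0.17 (SE), adjusted p = 5.12e-08). C4b ran from 33.2 to 62.7 CPM (median 50.3) at 3 mo and 54.8 to 106 CPM (median 88.5) at 28 mo (log2 fold change 0.78 ± 0.09 (SE), adjusted p = 8.10e-12), and C1ra, a protease of the first component, rose by 0.61 ± 0.08. Cfb, of the alternative pathway, was not called. The summed complement level was 263 to 400.1 CPM (median 342) at 3 mo and 339 to 646 CPM (median 545) at 28 mo. Among chemokines and cytokines 7 of 16 rose and 2 fell (median 0.30). Cxcl13, which draws B cells into follicles, ran from 5.02 to 14.1 CPM (median 7.25) at 3 mo and 9.80 to 36.3 CPM (median 16.8) at 28 mo (log2 fold change 1.15 ± 0.13 (SE), adjusted p = 2.96e-11). Cxcl12 and Cxcl16 rose by 0.31 ± 0.06 and 0.36 ± 0.07, while Il18, a cytokine stored in epithelium, fell (-0.43 ± 0.11).

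**Figure D5:**
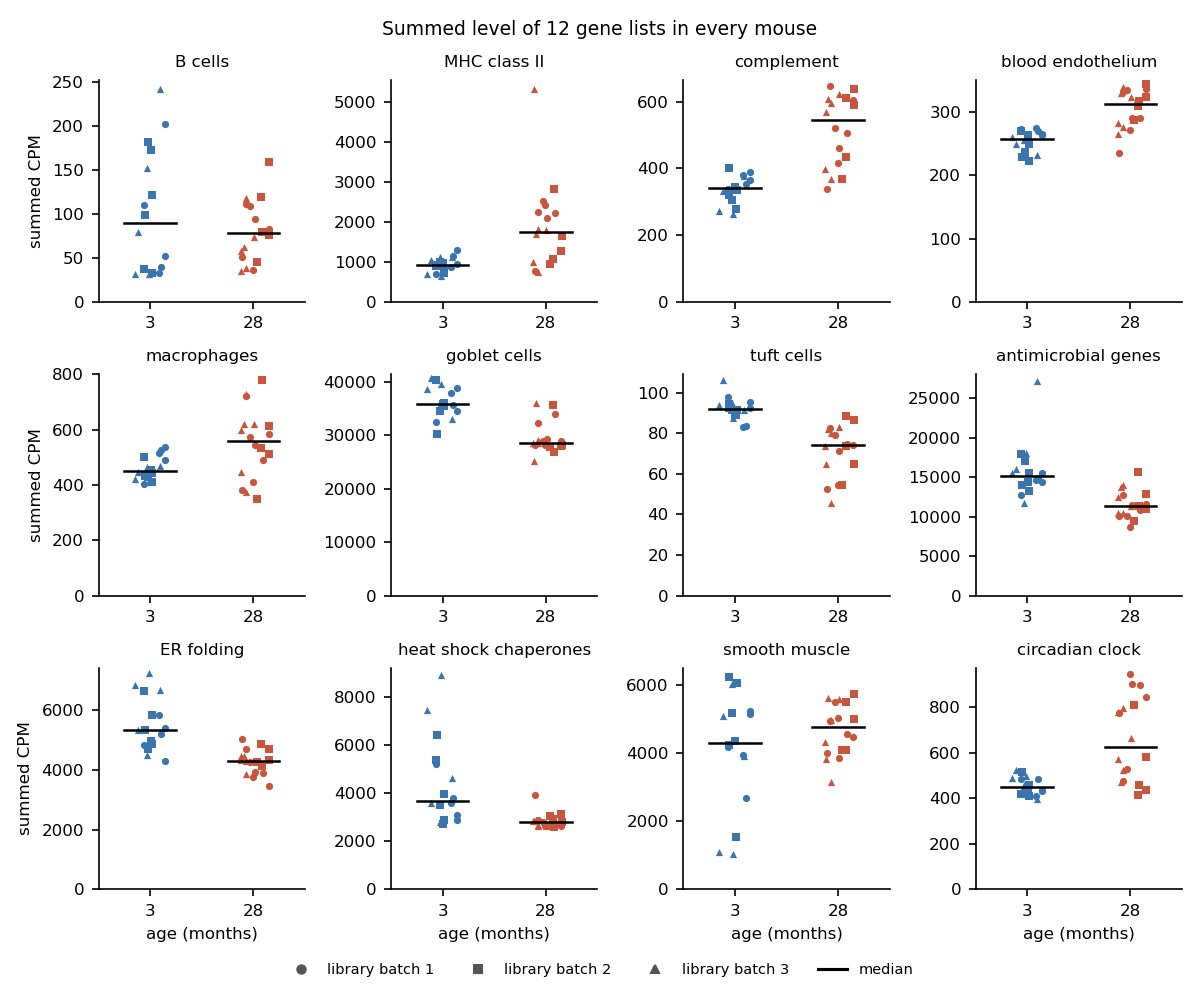
Summed CPM of the members of 12 lists in each mouse, with 3 and 28 mo mice side by side, marker shape by library batch and a bar at each group's median. Complement and MHC class II are shifted up at 28 mo and tuft cell and endoplasmic reticulum folding genes down, the 3 young mice with low smooth muscle stand clear of the rest, and B cell sums have medians of 89.2 CPM at 3 mo and 78.1 CPM at 28 mo, with maxima of 242 and 159 CPM.

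B cell genes fell in 12 of 14 cases (median -1.17), from a very uneven young group. The summed level of the list, Ighm included, overlapped widely, at 31.8 to 242 CPM (median 89.2) at 3 mo and 34.8 to 159 CPM (median 78.1) at 28 mo. Ms4a1, which encodes CD20, ran from 0.645 to 17.3 CPM (median 5.90) at 3 mo and 0.836 to 5.63 CPM (median 2.46) at 28 mo (log2 fold change -1.31 ± 0.36 (SE), adjusted p = 0.00216). Ighd, the IgD heavy chain of naive B cells, ran from 0.676 to 28.4 CPM (median 9.13) at 3 mo and 0.0567 to 3.22 CPM (median 1.40) at 28 mo (log2 fold change -2.83 ± 0.48 (SE), adjusted p = 1.51e-06). Fcer2a, the low-affinity IgE receptor CD23, ran from 0.123 to 7.46 CPM (median 1.95) at 3 mo and 0 to 0.896 CPM (median 0.181) at 28 mo (log2 fold change -3.59 ± 0.56 (SE), adjusted p = 2.24e-07). Cr2, the complement receptor CD21, ran from 0.234 to 11.2 CPM (median 3.42) at 3 mo and 0.104 to 1.34 CPM (median 0.472) at 28 mo (log2 fold change -3.06 ± 0.46 (SE), adjusted p = 9.78e-08), and Fcmr, the IgM Fc receptor, which is not in the list, fell too, with a log2 fold change of -2.54 ± 0.49. In 10 of the 16 young mice Cr2 was above every old mouse, and the others lay within the old range.

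The B cell count depended on a few mice. Without 3 mo replicate 14, 9 genes were lower. Ighm, the IgM heavy chain, was the 1 member that rose (0.61 ± 0.25), a call that was lost without 28 mo replicate 8 and without the 3 low-muscle libraries. Cd79a was not called (-0.39 ± 0.23).

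Of the 4 IgG heavy chain genes 3 rose, Ighg2c, Ighg2b and Ighg1, the last by 1.76 ± 0.51, while Ighg3 was not called (0.50 ± 0.45). Ighg3 and Ighg1 were added after their values were seen. Ighg1 ran from 5.19 to 36.9 CPM (median 11.1) at 3 mo and 0.867 to 170 CPM (median 31.8) at 28 mo. In 8 old mice Ighg1 was above every young mouse, and in 5 it was below every one. Ighg2c, an IgG2 heavy chain, ran from 31.7 to 135 CPM (median 67.2) at 3 mo and 61.5 to 662 CPM (median 365) at 28 mo (log2 fold change 2.46 ± 0.20 (SE), adjusted p = 1.88e-17). Ighg2b, another, ran from 37.2 to 86.0 CPM (median 60.3) at 3 mo and 38.5 to 589 CPM (median 212) at 28 mo (log2 fold change 1.97 ± 0.22 (SE), adjusted p = 2.31e-11). Igha, the heavy chain of the IgA that colon plasma cells mainly secrete, was not called (0.26 ± 0.19, adjusted p = 0.280), nor were the joining chain Jchain (0.11 ± 0.17), Mzb1 or Sdc1. Of 12 plasma cell genes 6 rose and none fell (median 0.36), among them the kappa light chain Igkc (0.42 ± 0.18) and Prdm1 (0.48 ± 0.10), the factor of terminal plasma cell differentiation. Immunoglobulin genes share sequence, so reads of single constant genes are uncertain.

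T cell and cytotoxic genes rose in part. The T cell receptor subunits Cd3e, Cd3d and Cd3g were not called. Foxp3, the factor of regulatory T cells, ran from 0.391 to 1.72 CPM (median 0.844) at 3 mo and 0.557 to 2.24 CPM (median 1.37) at 28 mo (log2 fold change 0.59 ± 0.15 (SE), adjusted p = 0.00134) and Cd8b1, a chain of CD8, rose by 0.66 ± 0.21. Of 12 T cell genes 6 rose and none fell, but 3 rose without 28 mo replicate 1, the mouse with the highest MHC class II level. Of 11 cytotoxic lymphocyte genes 7 rose and 1 fell (median 0.44). Eomes, a factor of memory and effector lymphocytes, ran from 0.311 to 1.01 CPM (median 0.608) at 3 mo and 0.794 to 2.51 CPM (median 1.34) at 28 mo (log2 fold change 1.21 ± 0.15 (SE), adjusted p = 4.32e-10). Prf1, which encodes perforin, rose by 0.77 ± 0.15. Klrd1, the CD94 receptor chain of natural killer cells, was lower, at 2.73 to 5.06 CPM (median 3.73) at 3 mo and 1.16 to 2.69 CPM (median 2.03) at 28 mo (log2 fold change -0.86 ± 0.11 (SE), adjusted p = 1.31e-09), with no overlap between the groups.

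Many myeloid genes rose. Of 13 macrophage genes 9 rose and none fell (median 0.32). Cd163, a scavenger receptor of tissue macrophages, ran from 3.50 to 7.08 CPM (median 4.54) at 3 mo and 5.20 to 14 CPM (median 7.70) at 28 mo (log2 fold change 0.81 ± 0.14 (SE), adjusted p = 1.17e-06). Csf1r, the receptor on which macrophages depend, and Cd68, a lysosomal protein of theirs, rose by 0.45 ± 0.10 and 0.45 ± 0.09. Adgre1, which encodes F4/80, was not called (0.01 ± 0.12). Dendritic cell genes were not called except Cd209a, which fell (-1.10 ± 0.21). All 5 tested mast cell genes rose (median 1.23), from low levels at 3 mo. Mcpt4, a mast cell protease, ran from 0 to 0.266 CPM (median 0.111) at 3 mo and 0.0673 to 0.916 CPM (median 0.315) at 28 mo. Mcpt1, another, ran from 0.715 to 5.11 CPM (median 1.69) at 3 mo and 0.801 to 32.2 CPM (median 4.02) at 28 mo. Of 5 tested neutrophil genes S100a8, S100a9 and Retnlg rose and Ly6g fell (-1.11 ± 0.34), with the highest Ly6g level, 18.6 CPM, in 3 mo replicate 14.

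In the stroma, vessels rose most evenly. Of 12 blood endothelial genes 9 rose and none fell (median 0.19), with 9 or 10 in every fit that left out 1 mouse. Vwf, which encodes von Willebrand factor, ran from 15.8 to 21.7 CPM (median 19.1) at 3 mo and 22.2 to 41.5 CPM (median 31.1) at 28 mo (log2 fold change 0.72 ± 0.07 (SE), adjusted p = 6.46e-14), with every old mouse above every young one. Esam, a junction molecule, and Flt1, a receptor for vascular endothelial growth factor, rose by 0.37 ± 0.05 and 0.29 ± 0.05. Of 6 lymphatic genes 4 rose, among them Lyve1 (0.31 ± 0.06) and Reln (0.41 ± 0.06), but Prox1, the factor that defines this lineage, was not called (-0.08 ± 0.09). Of 7 pericyte genes 6 rose (median 0.32). Notch3, a receptor of mural cells, ran from 7.28 to 14.1 CPM (median 11.5) at 3 mo and 10.8 to 21.7 CPM (median 16.9) at 28 mo (log2 fold change 0.59 ± 0.08 (SE), adjusted p = 1.41e-08), and Pdgfrb rose by 0.35 ± 0.06. Without the 3 low-muscle libraries 2 were called higher, with a log2 fold change of 0.15 for Rgs5 in place of 0.32.

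Fibroblast and matrix genes were mixed. Dcn, the small proteoglycan decorin, ran from 114 to 208 CPM (median 159.6) at 3 mo and 169.8 to 282 CPM (median 209) at 28 mo (log2 fold change 0.51 ± 0.08 (SE), adjusted p = 6.32e-07), while Pdgfra and Lum were not called. In total 5 of 13 fibroblast genes were higher and 1 lower, or 3 higher without 3 mo replicate 16. Of 18 collagen genes 3 rose and 4 fell (median -0.05). Col8a1, a short-chain collagen of vessel walls, ran from 25.8 to 79.9 CPM (median 42.4) at 3 mo and 10.7 to 28.3 CPM (median 19.4) at 28 mo (log2 fold change -1.11 ± 0.15 (SE), adjusted p = 5.74e-09). The fibrillar Col3a1 and Col1a1 had log2 fold changes of -0.31 ± 0.10 and -0.28 ± 0.11, and Serpinh1, their chaperone, of -0.51 ± 0.11. Without the 3 low-muscle libraries 7 collagen genes were lower. Lox, which crosslinks elastin and collagen, rose (0.53 ± 0.09), as did the elastic fibre genes Fbln5 and Mfap4 (0.35 ± 0.07 and 0.44 ± 0.10), and Eln itself was not called.

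Muscle and nerve genes depended on the same 3 libraries. Of 12 smooth muscle genes only Hhip was called, and higher, with an adjusted p of 0.0665 that was lost in several fits without 1 mouse, whereas 5 were higher without 3 mo replicate 8. Myh11, the smooth muscle myosin, had a log2 fold change of 0.19 ± 0.14 with all mice and -0.01 without the 3 libraries. Of 14 enteric neuron genes 4 fell and none rose (median -0.24). Without the 3 libraries 13 were lower (median -0.42), and there the neuronal RNA-binding protein Elavl4 changed from -0.30 to -0.49. Vip, the vasoactive intestinal peptide, ran from 15.4 to 52.1 CPM (median 35.4) at 3 mo and 19.3 to 35.0 CPM (median 26.3) at 28 mo (log2 fold change -0.47 ± 0.11 (SE), adjusted p = 1.91e-04). Tac1, the substance P precursor, and Chat, which makes acetylcholine, had log2 fold changes of -0.44 ± 0.11 and -0.40 ± 0.12. The pacemaker markers Kit and Ano1 of interstitial cells of Cajal were not called. Of 9 glial genes 3 rose and 1 fell, or 1 rose without 3 mo replicate 1, and 1 rose and 2 fell without the 3 libraries. The glial markers Sox10 and S100b were not called, and Fabp7, a fatty acid-binding protein of radial glia, was lower, at 0.193 to 0.935 CPM (median 0.564) at 3 mo and 0.0697 to 0.466 CPM (median 0.173) at 28 mo (log2 fold change -1.43 ± 0.20 (SE), adjusted p = 1.48e-08).

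Cells of the outer surface and of adjoining tissue also differed between the ages. Of 6 mesothelial genes 5 rose and 1 fell (median 1.15). Msln, the mesothelin gene, ran from 0.468 to 1.77 CPM (median 1.07) at 3 mo and 0.949 to 4.46 CPM (median 2.19) at 28 mo (log2 fold change 1.05 ± 0.20 (SE), adjusted p = 1.47e-05), and Upk3b rose by 1.25 ± 0.31. Of 8 adipocyte genes 4 rose, or 2 without 3 mo replicate 6, but the defining Adipoq, Plin1 and Lep were not called. Adipoq ran from 0.173 to 21.6 CPM (median 2.87) at 3 mo and 0 to 36.8 CPM (median 5.98) at 28 mo. Acta1, of skeletal muscle, rose (0.50 ± 0.17). How much fat and serosa came with each colon was not measured, and its part in the stromal results was not tested.

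Metabolic genes moved by small amounts. Of 26 nuclear genes for respiratory chain subunits 5 fell and none rose (median -0.04), and 1 was lower without the 3 low-muscle libraries. Of 13 transcripts of the mitochondrial genome 4 rose and 1, mt-Nd2, fell (-0.12 ± 0.04). Among those that rose, mt-Nd1 and mt-Co1 did so by 0.21 ± 0.04 and 0.15 ± 0.05. Of 22 genes of cholesterol and fatty acid synthesis 8 rose and 2 fell, or 4 rose without 28 mo replicate 3, and none fell without the 3 low-muscle libraries. Insig1, which holds back sterol synthesis, ran from 46.7 to 113 CPM (median 78.8) at 3 mo and 58.2 to 212 CPM (median 125) at 28 mo (log2 fold change 0.65 ± 0.16 (SE), adjusted p = 5.33e-04). Lss rose by 0.38 ± 0.10, and Fasn was not called. Of 18 fatty acid oxidation genes 6 rose and 3 fell, with Acot2 up (0.37 ± 0.08) and Cpt2 down (-0.20 ± 0.05). Only 1 was lower without the 3 low-muscle libraries or without 3 mo replicate 7, and 5 were without 3 mo replicate 3. Of 21 xenobiotic genes 7 rose and none fell. Gsta4 and Gsta3, glutathione transferases, rose by 0.40 ± 0.06 and 0.48 ± 0.09, and Abcb1a, the drug efflux pump, ran from 297 to 855 CPM (median 708) at 3 mo and 683 to 1281 CPM (median 843) at 28 mo.

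Antioxidant enzymes split, with 6 of 20 higher and 11 lower, or 7 lower without the 3 low-muscle libraries. Prdx6, a peroxiredoxin, ran from 705 to 1232 CPM (median 870.2) at 3 mo and 478 to 856 CPM (median 683) at 28 mo (log2 fold change -0.44 ± 0.08 (SE), adjusted p = 9.05e-06). Gpx2, the glutathione peroxidase of gut epithelium, fell too (-0.48 ± 0.10). Gclc, which limits glutathione synthesis, and the secreted Gpx3 rose (0.38 ± 0.06 and 0.36 ± 0.06). Lysosomal genes had no common direction, 4 of 20 higher and 5 lower. Apart from Gpnmb, Ctsk, a protease of matrix, rose (0.55 ± 0.08), and Ctsl, Hexa and Glb1, whose product is the beta-galactosidase stained as a senescence marker, fell (-0.30 ± 0.05, -0.24 ± 0.04 and -0.24 ± 0.04).

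Of 15 tested genes of the p53 response and senescence 4 rose and 6 fell (median -0.02). Cdkn1a, the p21 inhibitor, ran from 181 to 286 CPM (median 214) at 3 mo and 201 to 268 CPM (median 226) at 28 mo and was not called (0.06 ± 0.05, adjusted p = 0.402). Cdkn2a, the p16 and p19 locus that marks senescent cells, was below the count filter, with no mouse of either age above 0.359 CPM. Cdkn2b, its neighbour, was lower, at 39.4 to 56.4 CPM (median 50.7) at 3 mo and 24.3 to 51.7 CPM (median 37.0) at 28 mo (log2 fold change -0.37 ± 0.08 (SE), adjusted p = 4.33e-05). Without the 3 low-muscle libraries 3 genes of this list were lower and 4 still higher. In each fit that left out 1 mouse 4 were higher as well.

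Writers and erasers of DNA methylation and Polycomb proteins, which repress developmental genes, moved little. Of 15 genes 3 rose and 5 fell (median -0.09). Dnmt1, Tet1 and Ezh2 were not called. Cbx7, a Polycomb chromodomain subunit, ran from 29.4 to 47.1 CPM (median 39.0) at 3 mo and 45.8 to 66.8 CPM (median 56.4) at 28 mo (log2 fold change 0.52 ± 0.06 (SE), adjusted p = 1.87e-12). Its paralogues Cbx8 and Cbx2 fell (-0.29 ± 0.06 and -0.23 ± 0.05). Without 28 mo replicate 5, 3 genes were lower.

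Of 18 imprinted growth genes and members of the IGF axis 7 rose and 4 fell (median 0.09). Besides Dlk1, Meg3, the long noncoding RNA from the other parental copy of the same imprinted cluster, ran from 48.2 to 99.4 CPM (median 68.1) at 3 mo and 18.9 to 61.0 CPM (median 37.5) at 28 mo (log2 fold change -0.91 ± 0.11 (SE), adjusted p = 1.97e-10). Cdkn1c, a growth-restraining inhibitor, fell (-0.42 ± 0.07). Igfbp5, an IGF-binding protein, ran from 74.1 to 112 CPM (median 94.6) at 3 mo and 105 to 224 CPM (median 144) at 28 mo (log2 fold change 0.75 ± 0.09 (SE), adjusted p = 1.58e-10). Igfbp4 and Igfbp7 rose by 0.44 ± 0.08 and 0.31 ± 0.07. Igf2 rose from a trace level (0.54 ± 0.19). Dlk1 and Meg3 thus fell together, though Dlk1 by far more.

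The ages between 3 and 28 mo place the largest changes in time. At 9, 15 and 24 mo the median of Dmrta2 was 0.537, 2.44 and 10.1 CPM and that of Irx2 0.149, 0.224 and 1.04 CPM, so that in CPM most of the rise of both lay after 15 mo, whereas on the log2 scale Dmrta2 made more of its rise before. Vsig2 stood at 39.8, 54.4 and 85.0 CPM at these ages and Gpnmb at 3.89, 4.23 and 10.6 CPM, the first rising from 9 mo on and the second after 15 mo. On the falling side the median of Dlk1 was 0.866, 0.318 and 0.20 CPM, that of Pex5l 1.44, 0.689 and 0.722 CPM and that of S100g 9.04, 6.37 and 3.13 CPM, and Pex5l had reached its 28 mo level by 15 mo. Cd74 had medians of 423, 466 and 574 CPM, C3 of 55.1, 69.5 and 92.7 CPM, Gcg of 67.3, 54.7 and 39.5 CPM and Trpm5 of 14.5, 14.8 and 11.9 CPM, each with its largest step in CPM between successive ages after 15 mo. The values at the intermediate ages are given as a description and were not tested here.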

How the data were processed

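Reads were paired and 100 bases long. According to the methods and the submitters' processing notes, the authors trimmed them with cutadapt 2.8 and PrinSeq, aligned them with HISAT2 2.1.0 to mouse build GRCm38, processed alignments with SAMtools 1.9 and assigned properly paired, uniquely mapped fragments to genes by strand with featureCounts (Subread 2.0.1). The deposited table holds raw counts of 37764 genes in 83 mice, of which 37652 were found by identifier in the annotation used here and 112 were not. Genes with near-identical copies lose reads to the unique-mapping rule.

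Counts were filtered with filterByExpr of edgeR 4.0.16 (R 4.3.3) by age group, scaled by TMM factors and fitted with 1 quasi-likelihood model of age and library batch over all 83 mice, which shares 1 estimate of the spread. The 28 against 3 mo contrast was called at a Benjamini-Hochberg adjusted p under 0.1. CPM values use the TMM library sizes. The test was also run on simulated data with known changes. Library measures were set against each other in permutation tests (two-sided, 100000 resamples), within batches too, and adjusted over the measures. Tables were made in Python 3.11.15 (pandas 2.3.3, numpy 2.4.6), permutation tests with scipy 1.17.1 and plots with matplotlib 3.10.9. Intervals between mice rest on 18 and 16 separate animals, and depth limits genes under about 1 CPM.

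Named genes were protein-coding, called, at a mean of at least 1 CPM and of 1 direction in all 3 batches: the 12 largest rises and falls and the 6 smallest p in each direction. For each of 52 lists (25 of cell types, 27 of pathways, 738 genes) the defining members and up to 3 called members with the smallest p in each direction were named, and the 3 most counted immunoglobulin constant genes were added. Genes outside this rule are marked, and some that it names are not reported here. The comparison and the lists were chosen with earlier results of these data known. Promoter sequences and protein-coding gene starts came from RefSeq for 12709 tested genes, and motifs were searched on both strands. Alternatives were DESeq2 1.42.0, other scalings, filters and model terms, fits within 1 batch and fits with mice left out.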

Additional observations from a re-analysis of the deposited data

How the results depend on the processing

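With DESeq2, 9104 genes were called, with size factors by relative log expression 9012, with upper quartile factors 8946 (53.6% of them higher, against 47.5%), without a batch term 8932, in a fit of the 34 mice alone 8094 and at an adjusted p under 0.05 7707. Shared calls had the same direction in all of these. The number of genes at least 1.5-fold apart moved from 1277 to 2824 with no filter on low counts, to 618 with at least 10 counts in every mouse and to 851 within batch 2. Within single batches, each with fewer mice, 3510, 2582 and 4230 genes were called in batches 1, 2 and 3, of which 1915, 1432 and 1959 were higher and 1595, 1150 and 2271 lower. In batches 1 and 2 the share of the 10 most counted genes differed by -0.222 and -0.463 percentage points. The mitochondrial share differed there by 0.489 and 0.234, and both shares were no longer past the threshold. The batch 1 values include 28 mo replicate 13, the highest library of its age in both shares. Leaving out each mouse in turn, an alternative added after the data were seen, gave 8585 to 9407 called genes, 4003 to 4762 higher, 4129 to 4950 lower and 1207 to 1330 at least 1.5-fold apart, and 31 of the 263 called named genes lost their call in at least 1 of these fits. Without 3 mo replicates 10, 12 and 16, also added later, 7207 of 7925 calls were shared and had the same direction.

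No label ties equal replicate numbers to a shared animal or day, and not all pairs deviated together: over 16 pairs the correlation of deviations ran from -0.142 to 0.347, with 10 over 0.1 and 3 libraries closest to their own number. With a replicate block 8289 genes were called, 4024 higher and 4265 lower, 1054 of them at least 1.5-fold apart, and 4 in place of 12 B cell genes and 8 in place of 14 cell cycle genes were lower. Some signs reversed: Axin2 was at -0.0075 in batch 1, Sdhc at 0.00038 and Bdh1 at 0.0455 in batch 3, Acta2 at -0.0743 with smooth muscle level as a covariate, and Ms4a1 and Cd79a at 0.28 and 0.41 with B cell level as a covariate. Those covariates are means of log2 CPM over lists that contain the same genes. Genes with few reads, such as mast cell and neutrophil genes, are limited by depth.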

Other observations

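The spread among mice also differed by age in some lists. Over 14942 genes with a mean of at least 1 CPM the SD of log2 CPM at 28 mo was a median of 0.952 times that at 3 mo, and 44.9% of genes had the wider spread at 28 mo. For MHC class II genes this ratio was 2.14, for plasma cell genes 2.03, for macrophage genes 1.94, for tuft cell genes 1.86 and for clock genes 1.6, whereas it was 0.499 for B cell genes, 0.47 for enteric neuron genes, 0.427 for heat shock chaperones and 0.317 for smooth muscle genes. The lists with the narrower spread at 28 mo include those in which 3 mo replicates 10, 12 and 16 stood apart. All 9 tuft cell genes at this level and 15 of 16 clock genes varied more among old mice, and no heat shock or enteric neuron gene did.

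Noncoding RNAs leaned toward higher levels at 28 mo. Of 593 tested lincRNA genes 32.9% rose and 16.9% fell, of 529 antisense genes 31.8% rose and 12.5% fell, and of 90 noncoding RNAs from bidirectional promoters 42.2% rose and 10% fell, against 23.2% and 28.3% of 15263 protein-coding genes. Processed pseudogenes leaned the other way, with 6.74% of 445 higher and 14.8% lower. The noncoding classes had median levels of 0.718, 0.696 and 1.16 CPM, against 21.8 CPM for protein-coding genes, so level and class are not separate here. Among protein-coding genes those that fell had a median level of 30.4 CPM and a median gene span of 19387 bases, and those that rose 14.7 CPM and 27284 bases.

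Immunoglobulin variable genes showed single-mouse peaks. Of 175 tested variable genes 27 rose and 11 fell, and for 12 of them at 3 mo and 17 at 28 mo a single mouse held more than 50% of the group's sum. The summed level of variable genes ran from 822 to 1657 CPM (median 1292) at 3 mo and from 731 to 3398 CPM (median 1519) at 28 mo. The pancreatic enzymes of 28 mo replicate 14, 77.2 CPM in sum, stood alone among the 34 libraries, since the next were at 4.13 and 2.69 CPM.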
